A study of Mus musculus with 4 samples.

Results

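The genes described here are 54 mouse genes that copy DNA or make its building blocks: origin recognition and licensing factors, the replicative helicase, DNA polymerases, the sliding clamp and its loaders, and enzymes of deoxynucleotide synthesis. They were chosen by name and function, with earlier results of these data known though no measured value entered the rule, and all 54 were found among the 23970 gene symbols of the expression table. All 54 also passed the filter on low values (a mean of at least 1 FPKM over the libraries), as did 11350 symbols in all. FPKM is a read abundance corrected for transcript length and library size, so levels of different genes can be set side by side.

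RNA came from primary keratinocytes of newborn mice at passage 0, grown in low-calcium medium on growth-arrested J2-3T3 mouse fibroblasts and collected before confluence with the feeders taken off. There were 2 control libraries and 2 libraries from keratinocytes deficient in Ovol2, a zinc-finger repressor that epithelial cells express. All 4 shared cell type, age, passage and culture, and had no further treatment. The allele, the promoter of any Cre and the control genotype are not given in the sources used here, nor whether the libraries of a group came from different mice, so the tests measure only the spread between these samples. Ovol2 itself stood at 2.68 and 2.14 FPKM in control cells against 1.45 and 0.941 in Ovol2-deficient cells. Its groups did not overlap, but the difference missed the threshold (log2 fold change -0.64, SE 0.18, adjusted p = 0.129).

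Before a cell divides it copies each chromosome once. In G1 the origin recognition complex, Cdc6 and Cdt1 load rings of Mcm2 to Mcm7 onto DNA, and in S phase these rings are activated as helicases, opened strands are coated by RPA, and polymerases extend primers behind them with the clamp PCNA. Many of these genes are transcribed under E2F factors as cells leave G1, so their mRNA is abundant in cycling cells, such as basal keratinocytes, and scarce in cells that have left the cycle to differentiate.

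In the Ovol2-deficient libraries most replication genes stood lower, by moderate amounts. Geminin (Gmnn), DNA ligase 1 (Lig1) and the helicase subunit Mcm6 fell, to 55.9%, 55.8% and 65.2% of the control mean. Of the 54 genes, 3 fell, 0 rose and 51 did not pass the test (limma across all 11350 genes, Benjamini-Hochberg adjusted p under 0.05). Over all genes tested, 0.511% were called lower and 0.837% higher. The median log2 fold change of the 54 genes was -0.39, with a range of -0.79 to 0.15, against -0.0014 over all genes tested. In 51 of 54 genes it was below 0, as it was in 50.4% of all genes. Both deficient values lay below both controls in 46 genes (24.0% of all genes tested) and above them in 2 (24.1%), while 6 overlapped. At an unadjusted p under 0.05, 37 of the 54 were lower and 0 higher, against 7.94% lower over all genes.

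In the authors' deposited table, made from the same libraries, 14 of the 54 genes were lower and 0 higher at an adjusted p under 0.05. Of all rows with an adjusted p there, 2.10% were lower and 2.33% higher. The 14 genes were Lig1, Mcm6, Mcm5, Clspn, Tk1, Mcm4, Mcm3, Dbf4, Cdt1, Rrm1, Gmnn, Chaf1b, Pold1 and Pold2, and they include the 3 called by limma. Mean normalized values in the authors' deposited table ran from 42.8 for Dscc1 to 3700.3 for Rrm1, so the depth behind the genes differed widely. From the lowest values of that table the libraries held about 1.24e+07 to 1.48e+07 counted reads, if normalized totals were equal.

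**Figure D1:**
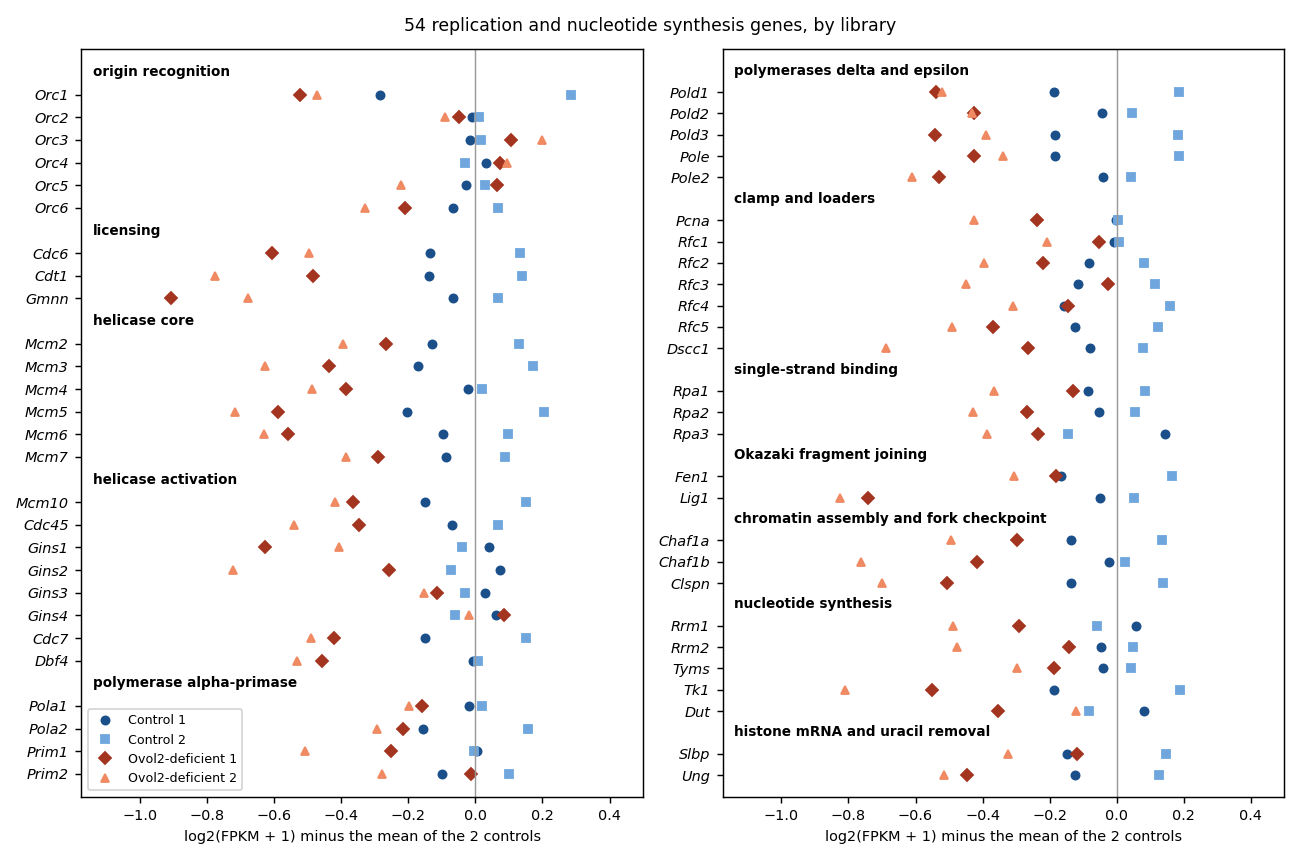
Each row is 1 of the 54 genes, grouped by complex, and each point is 1 library, placed by its log2(FPKM + 1) minus the mean of the 2 controls (x axis). Circles and squares are controls 1 and 2, diamonds and triangles Ovol2-deficient libraries 1 and 2. In 46 genes both deficient points lie left of both control points, while the deficient points of Orc3 and Orc4 lie right of both controls.

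The libraries of a group also differed from each other. Control 2 stood above control 1 in 45 of the 54 genes (46.6% of all genes tested), and deficient library 1 above deficient library 2 in 44 (62.1% of all). The median of the 54 genes, relative to the control mean, was -0.07 in control 1, 0.07 in control 2, -0.29 in deficient library 1 and -0.43 in deficient library 2. The median absolute difference on the log2 scale was 0.16 between the controls and 0.14 between the deficient libraries, and 0.39 between the groups. Across the 54 genes, which share the 4 libraries, Pearson's r between the log2 control FPKM and the log2 fold change was 0.012 and Spearman's rho 0.022.

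The origin recognition complex had the median closest to 0 of the 12 complexes, a log2 fold change of -0.07, and none of its 6 genes passed the test. Orc2, Orc3, Orc4 and Orc5, core subunits of the complex, had log2 fold changes of -0.07, 0.15, 0.08 and -0.08 (SE 0.09, 0.10, 0.09 and 0.12). For Orc2, 29.8% of the annotated exon bases lie under exons of Nif3l1 on the opposite strand, and no strand is stated for the reads. Orc4 stood at 20.9 and 19.9 FPKM in control cells against 21.5 and 21.8 in Ovol2-deficient cells, and Orc3 at 9.24 and 9.46 against 10.1 and 10.9. Those were the only genes of the 54 with both deficient values above both controls. Orc5 overlapped between the groups (17.0 and 17.7 against 18.2 and 14.7; adjusted p = 0.806), and its log2 fold change ran from -0.22 to 0.07 with 1 library left out. Orc1, the ATPase subunit that Cdc6 resembles, stood at 4.55 and 7.23 in control cells against 3.71 and 3.87 in Ovol2-deficient cells. Its controls lay far apart, and the difference did not pass (log2 fold change -0.50, SE 0.19, adjusted p = 0.238). The log2 fold change of Orc1 ran from -0.78 without control 1 to -0.21 without control 2. Orc6, the smallest subunit, stood at 25.1 and 27.6 against 22.6 and 20.7 (log2 fold change -0.27, SE 0.10, adjusted p = 0.231).

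The licensing factors had the lowest median, -0.63, and their groups did not overlap. Geminin, which binds Cdt1 and blocks new helicase loading until mitosis is over, had the lowest log2 fold change of the 54 genes on the log2(FPKM + 1) scale, although as a share of the control mean Lig1 was as low. Gmnn (ENSMUSG00000006715.11, mm10, chromosome 13, 24751845 to 24761923, minus strand) stood at 20.6 and 22.7 FPKM in control cells against 11.1 and 13.1 in Ovol2-deficient cells. The fall, from 21.6 ± 1.51 to 12.1 ± 1.47 (SD, n = 2 each), was -0.79 on the log2 scale (SE 0.12, adjusted p = 0.0392). Cdt1, the helicase loader that geminin holds back, stood at 14.8 and 18.2 in control cells against 11.5 and 9.17 in Ovol2-deficient cells. Both deficient values were lower, but the libraries of both groups lay apart and Cdt1 did not pass in limma (log2 fold change -0.63, SE 0.14, adjusted p = 0.0804). Cdc6, the ATPase that works with the origin complex, was the lowest of the 3 in level, at 3.14 and 3.99 against 1.98 and 2.22 (log2 fold change -0.55, SE 0.15, adjusted p = 0.118). The ratio of Gmnn to Cdt1 FPKM was 1.39 and 1.25 in control cells against 0.964 and 1.43 in Ovol2-deficient cells, so it overlapped between the groups.

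All 6 subunits of the helicase ring stood lower in both deficient libraries than in either control, with log2 fold changes of -0.65 to -0.33 and a median of -0.48. Only Mcm6 passed in limma. Mcm6 (ENSMUSG00000026355.11, mm10, chromosome 1, 128331590 to 128359664, minus strand) stood at 36.8 and 42.2 FPKM in control cells against 26.4 and 25.0 in Ovol2-deficient cells. The fall, from 39.5 ± 3.82 to 25.7 ± 0.952 (SD, n = 2 each), was -0.60 on the log2 scale (SE 0.10, adjusted p = 0.0482). Mcm5 had a larger change with more spread, at 28.2 and 37.8 in control cells against 21.4 and 19.5 in Ovol2-deficient cells (log2 fold change -0.65, SE 0.14, adjusted p = 0.0759). Its value ran from -0.86 without control 1 to -0.45 without control 2. Mcm4, at 37.1 and 38.2 against 28.6 and 26.6, had tight groups (log2 fold change -0.44, SE 0.09, adjusted p = 0.0680). Mcm3 stood at 22.3 and 28.6 in control cells against 18.4 and 16.0 in Ovol2-deficient cells (log2 fold change -0.53, adjusted p = 0.108). Mcm7 was the most abundant subunit, at 44.6 and 50.5 against 38.6 and 36.1 (log2 fold change -0.34, adjusted p = 0.147). Mcm2 had the highest p of the ring, at 25.7 and 31.0 against 23.3 and 21.2 (log2 fold change -0.33, SE 0.12, adjusted p = 0.209). Summed over the ring, the level was 195 and 228 FPKM in control cells against 157 and 144 in Ovol2-deficient cells. The ratio of that sum to the summed FPKM of Orc2 to Orc5 was 2.96 and 3.45 in control cells against 2.30 and 2.22 in Ovol2-deficient cells, without overlap. Orc2 to Orc5 were the Orc genes with changes nearest 0, and Orc1 and Orc6 (-0.50 and -0.27) were left out. The ratio was not planned, and with that choice its lack of overlap is no separate result.

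**Figure D2:**
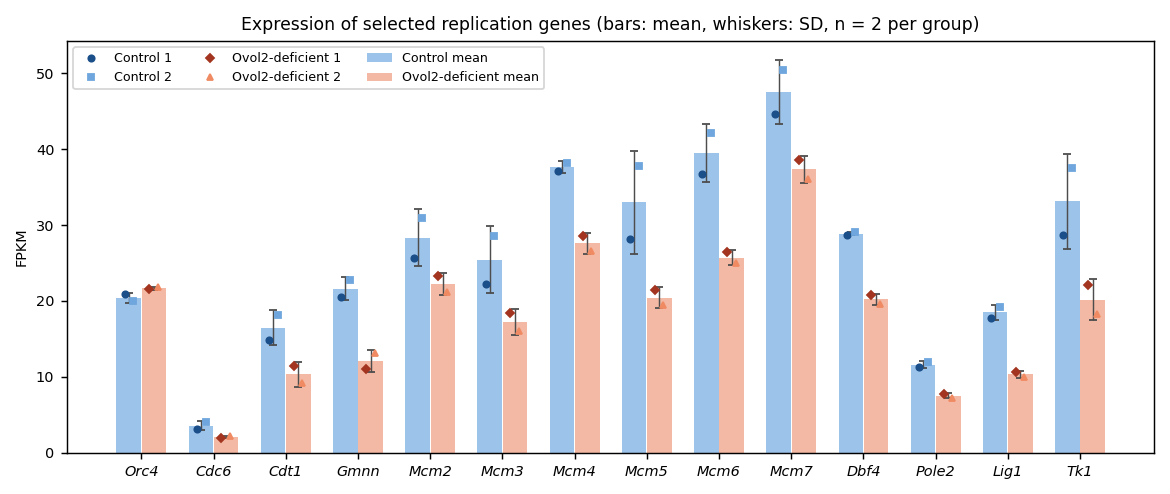
FPKM (y axis, from 0) of 14 genes, with bars for the group means, whiskers for the SD of 2 libraries and points for each library. The 6 Mcm genes, Cdc6, Cdt1, Gmnn, Dbf4, Pole2, Lig1 and Tk1 have both deficient points under both controls, while Orc4 stands at 20.9 and 19.9 in control cells against 21.5 and 21.8 in Ovol2-deficient cells.

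The start regions of the Mcm genes and Lig1 are shown because E2F factors are known to act there, and they allow the genes to be compared letter by letter. Each is 300 bases of RefSeq (GRCm38.p6), from 250 before to 50 after an annotated start, printed 5′ to 3′ on the gene's strand. For genes with more than 1 annotated start the window with the most matches is given. Capitals mark the E2F-type letters TTTCCCGC, TTTGGCGC, TTTCGCGC or TTTGCCGC on either strand, and overlapping matches run together:
Mcm2 (chr6:88898731-88899030, minus strand): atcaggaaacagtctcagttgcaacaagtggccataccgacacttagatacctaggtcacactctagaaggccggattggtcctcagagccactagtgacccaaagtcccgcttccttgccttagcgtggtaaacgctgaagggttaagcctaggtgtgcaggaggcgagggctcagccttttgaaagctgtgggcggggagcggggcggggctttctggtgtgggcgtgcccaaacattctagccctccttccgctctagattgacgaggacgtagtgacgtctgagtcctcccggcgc
Mcm3 (chr1:20820263-20820562, minus strand): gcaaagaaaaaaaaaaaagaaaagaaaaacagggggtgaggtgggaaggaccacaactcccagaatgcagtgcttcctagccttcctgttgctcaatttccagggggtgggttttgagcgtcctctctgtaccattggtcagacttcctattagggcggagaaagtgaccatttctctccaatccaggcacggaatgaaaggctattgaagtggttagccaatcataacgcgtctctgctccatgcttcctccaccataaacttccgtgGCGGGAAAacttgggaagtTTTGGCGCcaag
Mcm5 (chr8:75109259-75109558, plus strand): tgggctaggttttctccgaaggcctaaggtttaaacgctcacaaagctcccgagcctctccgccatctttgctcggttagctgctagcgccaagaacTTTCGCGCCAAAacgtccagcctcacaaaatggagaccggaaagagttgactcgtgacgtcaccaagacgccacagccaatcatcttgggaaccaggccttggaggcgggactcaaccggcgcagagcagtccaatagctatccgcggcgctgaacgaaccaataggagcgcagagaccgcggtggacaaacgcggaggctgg
Mcm6 (chr1:128359656-128359955, minus strand): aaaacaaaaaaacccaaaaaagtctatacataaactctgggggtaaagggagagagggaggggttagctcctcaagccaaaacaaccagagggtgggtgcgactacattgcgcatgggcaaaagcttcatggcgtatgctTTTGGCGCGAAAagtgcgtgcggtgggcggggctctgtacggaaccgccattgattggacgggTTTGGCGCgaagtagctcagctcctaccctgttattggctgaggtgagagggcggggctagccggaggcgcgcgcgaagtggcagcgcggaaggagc
Mcm7 (chr5:138171834-138172133, minus strand): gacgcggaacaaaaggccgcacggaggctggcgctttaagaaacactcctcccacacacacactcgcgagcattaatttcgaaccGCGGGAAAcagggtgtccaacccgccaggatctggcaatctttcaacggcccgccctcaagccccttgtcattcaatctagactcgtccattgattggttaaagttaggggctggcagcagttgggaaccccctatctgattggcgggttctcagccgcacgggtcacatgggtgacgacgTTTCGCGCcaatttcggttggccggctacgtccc
Lig1 (chr7:13278576-13278875, plus strand): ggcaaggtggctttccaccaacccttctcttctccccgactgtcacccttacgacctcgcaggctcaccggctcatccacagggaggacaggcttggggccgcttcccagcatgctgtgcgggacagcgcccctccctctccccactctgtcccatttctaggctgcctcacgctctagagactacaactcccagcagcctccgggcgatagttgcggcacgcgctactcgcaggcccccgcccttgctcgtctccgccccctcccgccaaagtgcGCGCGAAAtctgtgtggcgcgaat

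Mcm6 held 3 matches, 2 of them overlapping, from 110 to 99 bases before the start. Mcm3, Mcm5 and Mcm7 held 2 each, Lig1 held 1, and Mcm2 held none of these letters. Such a match is a run of letters and no measure of binding. Among the 45 members with a window in the table, 16 held a match (35.6%), against 2.60% of all 27025 symbols and 4.98% of the genes tested here that had a window. The 16 were Orc1, Orc3, Cdc6, Cdt1, Mcm3, Mcm5, Mcm6, Mcm7, Gins3, Pola1, Pold1, Pold3, Pole2, Rfc3, Lig1 and Clspn. Their median log2 fold change was -0.53 (range -0.78 to 0.15), and that of the 29 without a match -0.33 (range -0.68 to 0.08). The ranges overlapped nearly throughout. Orc3 held a match and had the highest log2 fold change of the 54 genes, and Tk1 held none and stood at -0.68. Among the G2 and M phase genes with a window, 1 of 17 held a match (5.88%), near the 4.98% of genes tested. Whether the letters bear on the fold changes was not tested. Gmnn, Mcm4, Gins1, Gins2, Gins4, Prim2, Pole, Rfc2 and Dscc1 had no window in the table used.

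**Figure D3:**
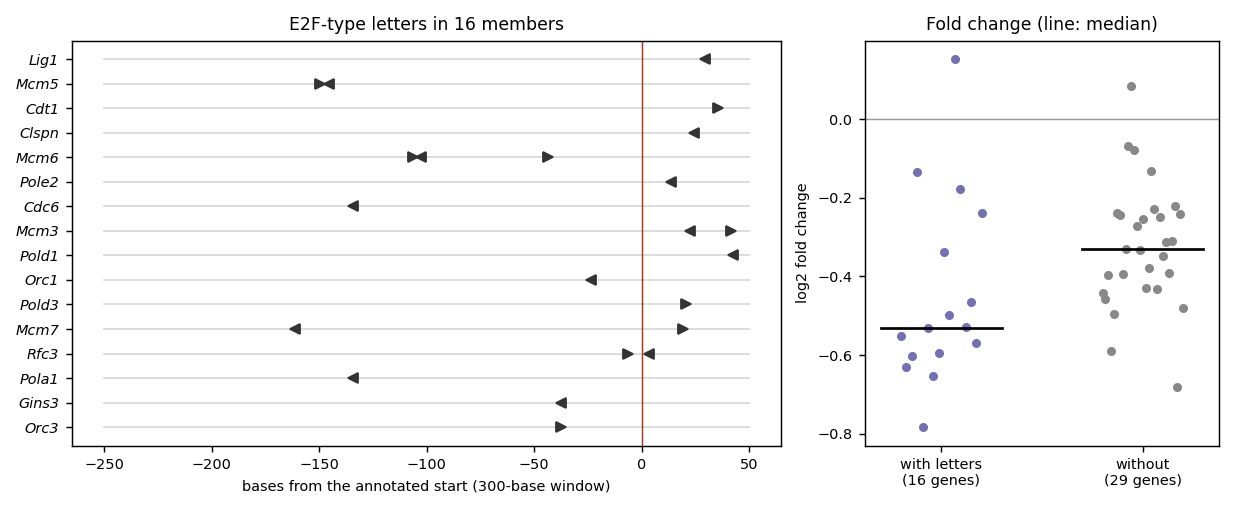
Left, the 16 members with E2F-type letters, ordered by log2 fold change from the lowest (Lig1) to the highest (Orc3); arrowheads mark each match by its distance in bases from the annotated start (x axis) and point along the gene when the letters read forward. Right, log2 fold changes of the 16 members with and the 29 without a match, with medians of -0.53 and -0.33 as lines.

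Of the 8 factors that turn the loaded ring into a working helicase, none passed in limma, although 6 had an unadjusted p under 0.05, all lower. Cdc7 and Dbf4 form the kinase that triggers activation. Dbf4, its activating subunit, stood at 28.7 and 29.0 FPKM in control cells against 20.8 and 19.6 in Ovol2-deficient cells. With nearly equal replicates it came close to the threshold (log2 fold change -0.50, SE 0.09, adjusted p = 0.0546), and the authors' deposited table gave an adjusted p of 0.00501. Cdc7, the catalytic subunit, stood at 4.03 and 5.18 against 3.16 and 2.97 (log2 fold change -0.46, adjusted p = 0.164). Cdc45, which joins the ring with the GINS complex, stood at 9.42 and 10.5 against 7.60 and 6.52 (log2 fold change -0.44, SE 0.12, adjusted p = 0.118), and the scaffold factor Mcm10 had a log2 fold change of -0.39.

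The 4 GINS subunits, which sit together in 1 complex, had values from near those of the ring to near 0, and none passed. Gins1 and Gins2 had log2 fold changes of -0.52 and -0.49 (adjusted p = 0.0964 and 0.189), Gins3 -0.13 and Gins4 0.03. Gins4 was the most abundant of them and overlapped between the groups, at 26.3 and 24.1 FPKM in control cells against 26.8 and 24.8 in Ovol2-deficient cells (SE 0.10, adjusted p = 0.909). Gins1 stood at 7.11 and 6.66 against 4.10 and 4.94. For Gins2, 67.3% of the annotated exon bases lie under exons of Gse1 on the opposite strand, and the reads are not known to be stranded.

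Of polymerases delta and epsilon, which do the bulk of synthesis, 5 subunits are among the 54 genes. All 5 had an unadjusted p under 0.05, none passed after adjustment, and their median log2 fold change was -0.46. The smaller subunits Pole3, Pole4 and Pold4, outside the 54, stood at -0.08, 0.28 and 0.15, and none passed either (adjusted p = 0.742, 0.191 and 0.445). Pole2, an accessory subunit of the leading-strand polymerase epsilon, stood at 11.27 and 11.99 FPKM in control cells against 7.73 and 7.27 in Ovol2-deficient cells (log2 fold change -0.57, SE 0.10, adjusted p = 0.0545). Pold1, the catalytic subunit of polymerase delta, stood at 8.86 and 11.8 against 6.73 and 6.81 (log2 fold change -0.53, adjusted p = 0.115), and its partner Pold2 at 29.0 and 30.9 against 22.1 and 22.0 (log2 fold change -0.43, adjusted p = 0.0703). Pold3 had a log2 fold change of -0.46. The catalytic subunit Pole had the highest p of the 5 (log2 fold change -0.38, SE 0.15, adjusted p = 0.257). In polymerase alpha-primase, which lays the primers, the median was -0.22. Its lowest p was that of the primase subunit Prim1, at 15.1 and 15.0 against 12.5 and 10.3 (log2 fold change -0.38, SE 0.12, adjusted p = 0.155). The other primase subunit, Prim2, overlapped between the groups (log2 fold change -0.15, SE 0.13, adjusted p = 0.638). The catalytic subunit Pola1 had a log2 fold change of -0.18 and the accessory Pola2 of -0.25. Differences between the complexes were not tested.

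None of the 7 clamp and clamp loader genes passed in limma, with 4 lower at an unadjusted p under 0.05. Pcna, the ring that tethers polymerases to DNA, stood at 107 and 108 FPKM in control cells against 91.1 and 79.9 in Ovol2-deficient cells. The deficient libraries lay below the nearly equal controls but differed from each other (log2 fold change -0.33, SE 0.10, adjusted p = 0.147). Of the loader subunits, Rfc5 had the lowest p, at 18.4 and 22.0 against 15.3 and 14.0 (log2 fold change -0.43, SE 0.12, adjusted p = 0.120). The largest subunit, Rfc1, had the highest p, at 20.8 and 21.1 against 20.2 and 18 (log2 fold change -0.13, SE 0.10, adjusted p = 0.567). Rfc2, Rfc3 and Rfc4 stood between them, at -0.31, -0.24 and -0.23, and the groups overlapped for Rfc3 and Rfc4. Dscc1, a subunit of an alternative clamp loader, was at 2.55 and 2.96 against 2.12 and 1.33, few reads by the authors' deposited table (log2 fold change -0.48, SE 0.18, adjusted p = 0.237). The genome holds copies annotated as Pcna-ps1, Pcna-ps2 and Tyms-ps, so the values of Pcna and Tyms could include reads from them.

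The 3 subunits of RPA, which coats single-stranded DNA, had log2 fold changes within a narrow range, -0.25 for Rpa1, -0.35 for Rpa2 and -0.31 for Rpa3, and none passed. Rpa2 had the lowest p, at 12.3 and 13.4 FPKM in control cells against 10.5 and 9.27 in Ovol2-deficient cells (SE 0.11, adjusted p = 0.163). Rpa1 had the highest, at 33.6 and 37.9 against 32.5 and 27.5 (SE 0.12, adjusted p = 0.336).

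Okazaki fragments, the short pieces of the lagging strand, are finished by Fen1 and Lig1. Lig1, which seals the nicks, fell with the lowest p of the 54 genes. Lig1 (ENSMUSG00000056394.17, mm10, chromosome 7, 13277283 to 13311433, plus strand) stood at 17.8 and 19.2 FPKM in control cells against 10.7 and 9.996 in Ovol2-deficient cells. It went from 18.5 ± 0.972 to 10.3 ± 0.464 (SD, n = 2 each), a change of -0.78 on the log2 scale (SE 0.10, adjusted p = 0.0353). Fen1, which trims the flap before ligation, stood at 15.8 and 20.1 against 15.6 and 14.2 (log2 fold change -0.24, SE 0.13, adjusted p = 0.401). The ratio of Lig1 to Fen1 FPKM was 1.13 and 0.954 in control cells against 0.683 and 0.704 in Ovol2-deficient cells, without overlap. This ratio was not planned either, and with Lig1 the gene of lowest p, its lack of overlap is no separate result. An antisense gene covers 78.8% of the exon bases of Fen1, and its reads cannot be told apart from those of Fen1 if the libraries carry no strand. For Lig1 the share under an exon of another gene, Zswim9, was 5.79%.

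Behind the fork, Chaf1a and Chaf1b, subunits of the factor that places histones on new DNA, had log2 fold changes of -0.40 and -0.59. Chaf1b stood at 16.1 and 16.7 FPKM in control cells against 12.01 and 9.23 in Ovol2-deficient cells (SE 0.13, adjusted p = 0.0781). Chaf1a shares 52.5% of its exon bases with Ubxn6 on the opposite strand, and its p was the highest of this set (SE 0.13, adjusted p = 0.175). Claspin (Clspn), an adaptor of the checkpoint kinase Chk1 at stalled forks, stood at 6.61 and 8.21 against 4.90 and 4.15 (log2 fold change -0.60, SE 0.14, adjusted p = 0.0855; 0.00297 in the authors' deposited table).

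Of the 5 enzymes of deoxynucleotide supply among the 54 genes, all had both deficient values below both controls, and none passed in limma. Rrm1 and Rrm2, the large and small subunits of ribonucleotide reductase, were among the most abundant of the 54 genes. Rrm1 stood at 83.9 and 77.3 FPKM in control cells against 65.6 and 57.1 in Ovol2-deficient cells (log2 fold change -0.39, SE 0.10, adjusted p = 0.117; 0.0109 in the authors' deposited table). Rrm2 stood at 132 and 141 against 124 and 97.6 (log2 fold change -0.31, SE 0.13, adjusted p = 0.269). The ratio of Rrm2 to Rrm1 FPKM overlapped between the groups, at 1.57 and 1.82 against 1.88 and 1.71. Thymidine kinase 1 (Tk1), which salvages thymidine, had the largest difference of the enzymes, at 28.7 and 37.6 against 22.1 and 18.3 (log2 fold change -0.68, SE 0.15, adjusted p = 0.0752). Thymidylate synthase (Tyms), which makes thymidylate anew, stood at 7.29 and 7.79 against 6.50 and 5.95 (log2 fold change -0.24, SE 0.11, adjusted p = 0.327). Some other genes of this supply lie outside the 54, and those named next were picked after their values were seen. Rrm2b, an alternative small subunit of ribonucleotide reductase, stood at 6.99 and 6.63 against 7.66 and 8.63 (log2 fold change 0.23, adjusted p = 0.364), and Samhd1, which breaks down deoxynucleotides, had 0.17 on the same scale (adjusted p = 0.482). Tk2, Dguok and Cmpk1, nucleoside and nucleotide kinases, overlapped between the groups (0.03, 0.13 and 0.14). Dck, also of this supply, stood lower, at 11.6 and 11.5 against 8.09 and 7.66 (log2 fold change -0.50, adjusted p = 0.0628). Dtymk, Dctd and Dctpp1 were lower too, at -0.36, -0.28 and -0.18, and did not pass either. Among the 32 further nucleotide genes, which hold all of these, 7 were lower and 0 higher at an unadjusted p under 0.05. Among the 54, Dut, which breaks down dUTP, had the highest p of the 5 enzymes, at 13.53 and 11.96 against 9.74 and 11.6 (log2 fold change -0.24, SE 0.12, adjusted p = 0.381). Ung, which removes uracil from DNA, stood at 5.45 and 6.67 against 4.16 and 3.93 (log2 fold change -0.48, SE 0.13, adjusted p = 0.123). Slbp, which binds the stem-loop of histone mRNA, overlapped between the groups (log2 fold change -0.22, SE 0.13, adjusted p = 0.445).

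**Figure D4:**
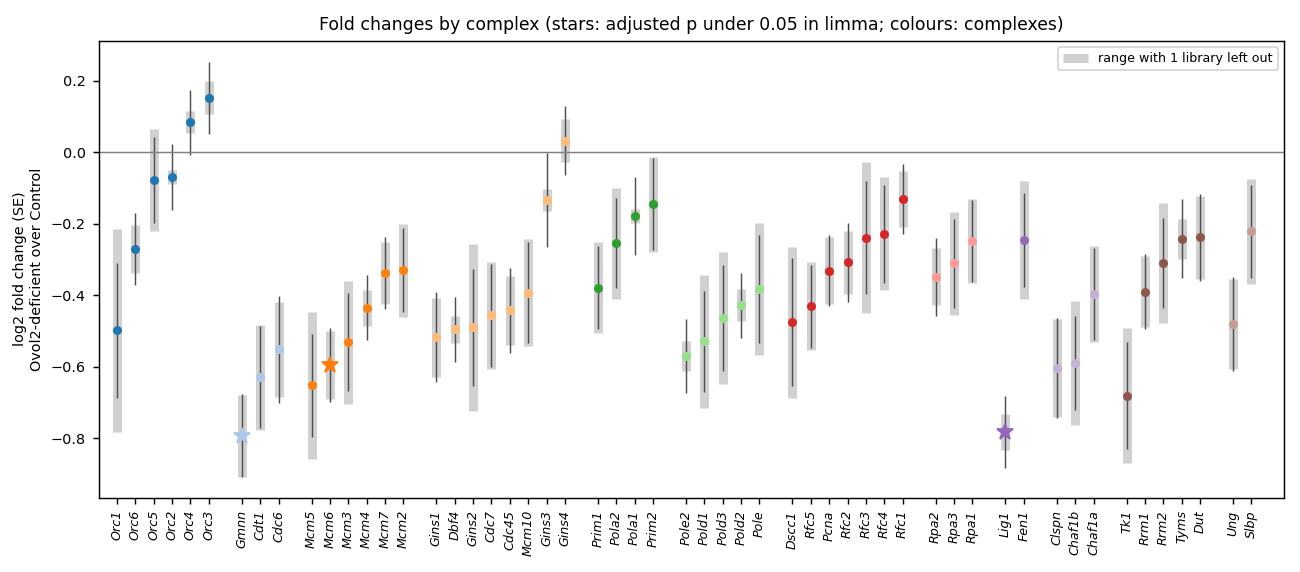
Log2 fold changes of the 54 genes (y axis, Ovol2-deficient over control on the log2(FPKM + 1) scale) with their SE as whiskers, ordered within each of the 12 complexes and coloured by complex. Grey bars give the range of each value with 1 library left out, and stars mark the 3 called genes, Gmnn, Mcm6 and Lig1, whose grey bars stay between -0.91 and -0.50.

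Further replication genes, outside the 54, gave a similar picture with smaller values. Of 26 such genes 24 had a log2 fold change below 0, 0 passed in limma (12 lower and 1 higher at an unadjusted p under 0.05), and the median was -0.29. By the authors' deposited table, 4 of them were lower and 0 higher. Cdca7, a chromatin factor, came closest in limma, at 13.5 and 18.1 FPKM against 9.12 and 8.40 (log2 fold change -0.77, adjusted p = 0.0572). Pole4, a histone-fold subunit of polymerase epsilon, and Pold4 of polymerase delta were the 2 of the 26 with both deficient values above both controls. Cdca7 and the polymerase subunits outside the 54 were picked for mention after their values were seen. Of 32 further nucleotide genes, mostly of purine, pyrimidine and folate metabolism, 0 passed in limma (7 lower and 0 higher at an unadjusted p under 0.05). Their median was -0.10, 22 were below 0, and by the authors' deposited table, 1 was lower and 0 higher. Uhrf1, which maintains DNA methylation behind the fork, fell from 22.3 and 27.4 in the controls to 13.7 and 14.6 (log2 fold change -0.76, SE 0.12, adjusted p = 0.0419). With 1 library left out its adjusted p ran from 0.0130 to 0.233, so that call can be lost.

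Genes of the G2 and M phases stood lower by more. All 22 had both deficient values below both controls (24.0% of all genes tested). In limma 11 fell and 0 rose, against 0.511% called lower and 0.837% higher over all genes tested. The median log2 fold change was -0.66 against -0.39 for the 54 genes. That difference between lists was not tested. In the authors' deposited table all 22 were lower at an adjusted p under 0.05 (2.10% of all rows with an adjusted p). The limma calls were less stable: the 3 further lists together gave 11, all of them these genes, but 0 without a filter, with quantile normalization, without a variance trend or without either deficient library, 2 without control 2 and 22 without control 1. Mki67, a marker of cycling cells, fell from 17.7 and 19.2 FPKM to 9.61 and 10.6 (log2 fold change -0.81, adjusted p = 0.0353), and cyclin A2 (Ccna2) from 49.0 and 52.8 to 30.5 and 29.0 (log2 fold change -0.75, adjusted p = 0.0353). The other 9 that fell were Ccnb1, Cdk1, Top2a, Plk1, Bub1, Bub1b, Kif11, Prc1 and Foxm1, with log2 fold changes between -0.79 and -0.62. In RNA from a mixed culture, fewer cycling cells and less of an mRNA in each cycling cell cannot be told apart.

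**Figure D5:**
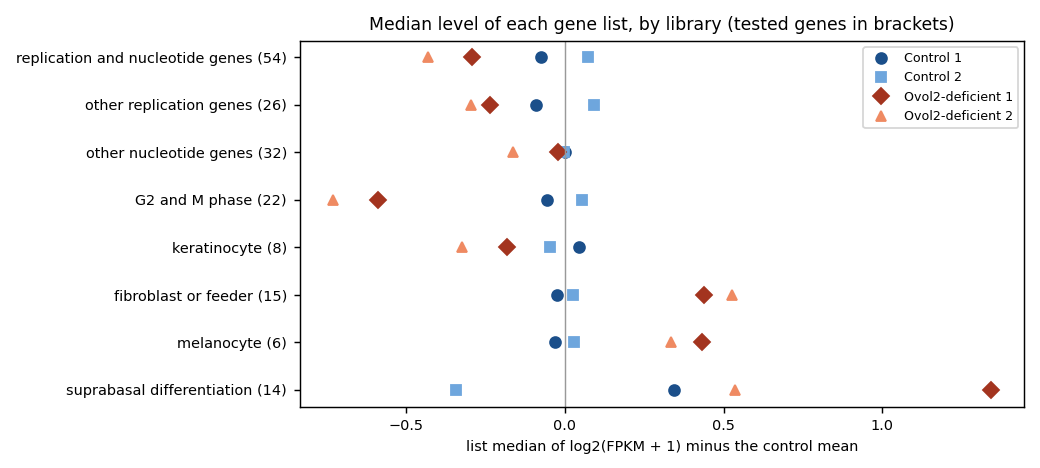
Median over each gene list of log2(FPKM + 1) minus the control mean (x axis), with 1 point per library and the number of tested genes in brackets. The 54 replication and nucleotide genes stand at -0.29 and -0.43 in the deficient libraries and the G2 and M phase genes at -0.59 and -0.73, with the keratinocyte markers at -0.18 and -0.32, while the lists of fibroblast, melanocyte and suprabasal markers stand above 0 there. The suprabasal markers also stand above 0 in control 1 (0.34 and -0.34 in the controls against 1.34 and 0.54).

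Some lists of genes used as markers of cell types or of differentiation also differed between the groups. The keratinocyte markers were abundant in all 4, with Krt5 at 2269 to 2960.3 FPKM, and 0 of 8 passed in limma (3 lower and 0 higher at an unadjusted p under 0.05). All 8 had a log2 fold change below 0, with a median of -0.24, library medians of -0.18 and -0.32 in the deficient libraries, and 2 lower in the authors' deposited table. Of 18 fibroblast or feeder markers 15 were tested, 3 rose (Loxl1, Pcolce and Vim), and 14 were higher and 0 lower at an unadjusted p under 0.05. At that threshold 1077 of all 11350 genes tested were higher. Pdgfra, among the 14, has a control mean of 0.965 FPKM against 1.63, so it passed the filter only through its deficient values. All 15 had both deficient values above both controls (24.1% of all genes tested), with a median log2 fold change of 0.49. By the authors' deposited table, 10 were higher and 0 lower. The summed level of the 18 was 805 and 758 FPKM in control cells against 1068 and 1115 in Ovol2-deficient cells. Single genes ran from Lum, at 0 to 0.0782, to S100a4, at 236 to 360, with Col1a1 at 34.5 to 52.5. Of 16 suprabasal differentiation markers 14 were tested and 2 rose (Lce1c and Lce3b), with 8 higher and 0 lower at an unadjusted p under 0.05. Lce3b, at 0.741 and 0.537 FPKM in control cells against 8.62 and 5.28, passed the filter only through its deficient values. The authors' deposited table gave Lce3b no adjusted p. The median log2 fold change of the 14 was 0.97, and 9 had both deficient values above both controls (24.1% of all genes tested). By the authors' deposited table, 2 of the 13 with an adjusted p were higher and 0 lower. The summed levels of this list overlapped, 2191 and 1448 against 3020.2 and 2084. Of 9 melanocyte markers 6 were tested and 0 passed (4 higher at an unadjusted p under 0.05), with sums of 62.9 and 68.7 against 92.0 and 85.4. Of 6 immune markers 2 were tested, 0 passed in limma (0 at an unadjusted p under 0.05), the sums overlapped, and Cd207 was listed at 0 in every library. Feeders and keratinocytes are both mouse cells, so whether the fibroblast or feeder genes were read from one or the other cannot be told apart. The part of other cells in the levels of the 54 genes was not tested.

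The calls rest on few libraries. Of the 3 calls in limma, those of Gmnn and Mcm6 were lost without control 2. All were lost without deficient library 1 or without deficient library 2. The number of calls over all genes also shifted in these fits. The median of the 54 genes was -0.43 without deficient library 1, -0.29 without deficient library 2, -0.30 without control 2 and -0.44 without control 1. Under quantile normalization, which called 5 genes higher and 0 lower over all genes against 95 and 58, that median was -0.40.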

How the data were processed

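RNA of 4 keratinocyte libraries was profiled by sequencing. Per the labels' protocols, full-length cDNA was amplified and tagmented with a Nextera kit, and no strand is stated. The submitters' processing notes name HTSeq, TopHat and the mm10 build, with no role or version. The authors deposited FPKM per library; its tool and annotation were not stated. Per the file headers, the authors' comparison lists for each gene a mean normalized signal, the log2 fold change and its error, the score of the test, and raw and adjusted p-values, with headings as DESeq2 writes them. Deposited log2 fold changes can lie nearer 0 than those computed here.

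A repeated header line (1) was dropped from the expression table, leaving 24487 rows. Symbols turned into dates (27 rows) were excluded, and values of rows with the same symbol were added up. Genes with a mean of at least 1 FPKM were tested with limma 3.58.1 in R 4.3.3 on log2(FPKM + 1), with group as the only term, a variance trend, two-sided tests, Benjamini-Hochberg adjustment over all genes tested and a threshold of 0.05. This scale understates changes of low genes. An exact permutation test of 2 against 2 libraries cannot go below p = 0.333; the limma fit was tested on simulated data. The table calls the deficient libraries Mutant-1 and Mutant-2, a name absent from the labels, so they were matched to the group and not to single samples. Counts were not analysed here, so no counting interval was computed.

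The 54 members and all lists were chosen with earlier results of these data known. Full statistics are given for called members, for the lowest and highest p in each complex and for chosen key factors. Gene coordinates were read from GENCODE M21 (mm10). Proteins were to be searched for a clamp-binding motif, which was not done here. Alternatives were another pseudocount (0.1), no filter or a stricter one (mean of at least 5 FPKM), quantile normalization, median centring, limma without a trend, the replicate number as a block, and leaving out each library. For Ovol2 and the further gene lists they were added after the data were seen.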

Additional observations from a re-analysis of the deposited data

How the results depend on the processing

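Under the 11 alternatives the median log2 fold change of the 54 genes stayed between -0.44 and -0.29, and the medians of all 12 complexes were below 0, except that without Ovol2-deficient library 2 there were 11. The 54 genes gave 3 calls, all lower. They gave 4 with a pseudocount of 0.1, 5 with a mean of at least 5 FPKM, 1 with median centring, and 0 without a filter, with quantile normalization or in limma without a variance trend (30, 38 and 35 lower at an unadjusted p under 0.05). With 1 library left out there were 0 to 12. Calls over all genes numbered 153, and were 3 without a filter, 267 at the stricter filter, 5 with quantile normalization, 80 with median centring and 6 without a trend; with 1 library left out they ranged from 10 to 397. Among the further replication, nucleotide and G2 and M phase genes, 11 were called, and 0 without a filter, 17 at the stricter filter, 0 with quantile normalization and 0 without a trend, with a range of 0 to 22 when 1 library was left out. The cause of these shifts was not tested; the filters change the number of genes tested, and fits with 1 library left out assume that the lone library varies like the other group. With 1 library left out, Gins4 ranged from -0.028 (without control 2) to 0.093, changing sign also without Ovol2-deficient library 1 (-0.019), and Orc5 from -0.22 to 0.066, changing sign without Ovol2-deficient library 2.

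With the replicate number as a block, 518 genes were called over all genes, 9 of the 54 (Chaf1b, Dbf4, Gmnn, Lig1, Mcm4, Mcm5, Mcm6, Pole2 and Rrm1) and 22 of the further lists. The numbers share no stated animal or day. Deviations from the group means correlated at 0.22 across genes between same-numbered libraries, so the block is a check and not the design. Values of Dscc1, Gins1 and Gins3 rest on the fewest reads among the 54 genes, by the authors' deposited mean values.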
